A study of Paeonia lutea x Paeonia suffruticosa with 9 samples.

Results

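The step from floral meristem to floral organ was examined in floral buds of ‘High Noon’, a tree peony hybrid of *Paeonia lutea* and *Paeonia suffruticosa*. Of the 9 RNA-seq libraries of the series, 6 were chosen by their stage labels, namely the 3 libraries of stage II (S2_1, S2_2 and S2_3) and the 3 of stage III (S3_1, S3_2 and S3_3). All came from plants labelled as 5 years old, with no treatment, and the adjacent scales and leaves had been taken off. By sections, the study identified stage II as floral meristem and stage III as floral organ. Its figure legend also places the differentiation of floral organs in stage II, so organ formation may have begun there. The stages were read from parallel buds and not from the sequenced ones, and whole buds were used, so each library mixes meristem, organ primordia and the bud tissue around them. The study describes its replicates as biological and lists RNA quality for each library. Nothing in the labels says whether the libraries of a stage came from separate plants. The p values therefore measure only the spread between these libraries, which may be less than that between plants. The 3 libraries of stage I (vegetative meristem) were used only as context.

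In flowering plants, a floral meristem is set up by meristem identity genes such as LFY and AP1, and organ primordia then form on its flanks. The kind of organ is set by MADS-box transcription factors that act in combination, with class B genes such as PI needed for petals and stamens and the class E SEPALLATA genes needed in all floral whorls. Upstream of them, the mobile protein FT carries the signal to flower from leaf to shoot apex, and repressors such as TEM2 and AGL15 hold it back in the model plant *Arabidopsis thaliana*.

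For each library the deposited values are expected read counts per transcript and FPKM values (fragments scaled to transcript length and library size). They cover 137758 long-read transcripts, of which 94434 had reads in at least 1 of the 6 libraries. The counts of a library added up to 20230573 to 25195520 fragments for stage II and to 20096583 to 22657762 for stage III. The biological coefficient of variation between replicates, the relative spread beyond counting error, was 0.320 in stage II and 0.262 in stage III. S2_1 had the largest total, and after scaling of the counts to library size (CPM) it was the highest of the stage II libraries for 44.6% of the 64971 transcripts tested, against 24.4% for S2_2 and 30.9% for S2_3. Gene names do not accompany the identifiers, so genes are named only for the 26 transcripts that the study matched to Arabidopsis flowering genes.

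From stage II to stage III a small part of the transcripts passed the test. That part depends on power and method, so it does not measure how many transcripts changed. Of 64971 transcripts tested with edgeR, 960 (1.48%) were called changed, with a fold change over 2 and a q value (Benjamini-Hochberg adjusted p) under 0.05. The directions were balanced, with 477 rises (0.734%) and 483 falls (0.743%). In bulk tissue, a change in the number of cells of a type and a change in RNA per cell cannot be told apart. Before adjustment 11308 transcripts (17.4%) had a p under 0.05, and for 15798 (24.3%) the libraries of the stages did not overlap in CPM. At the stricter q value of the study, under 0.001, edgeR called 4 transcripts (0.00616%), all of them rises, while DESeq2 called 1133. By the first rule the step from stage I to II gave 11298 of 64662 transcripts (17.5%) and that from stage I to III gave 14488 of 65124 (22.2%). Those comparisons share libraries with this one, and the differences between the counts were not tested.

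Both the number of calls and the balance of directions changed when single libraries were left out. Leaving out a library also lowers the power of the test, and the part of this was not tested. Without S2_1, S2_2 or S2_3 the calls were 651, 923 and 312, and without S3_1, S3_2 or S3_3 they were 43, 64 and 340. Rises and falls numbered 38 and 5 without S3_1, 47 and 17 without S3_2, and 192 and 120 without S2_3. DESeq2 called 2012 transcripts on the same libraries, 918 of them among the 960.

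Rises were larger than falls. The median log2 fold change of the 477 rises was 1.62, and that of the 483 falls was -1.36, while the median over all transcripts tested was -0.01 with quartiles of -0.28 and 0.26. A change of more than 4-fold was reached by 183 rises and 92 falls, and one of more than 8-fold by 95 rises and 36 falls. Of the 70 calls over 32-fold, 47 were rises and 23 were falls. The rises also started from lower levels, as 115 of them (24.1%) had a mean FPKM under 1 in stage II, whereas 57 falls (11.8%) ended under 1 in stage III. These sizes come from the values that made the calls and were not tested against each other.

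**Figure D1:**
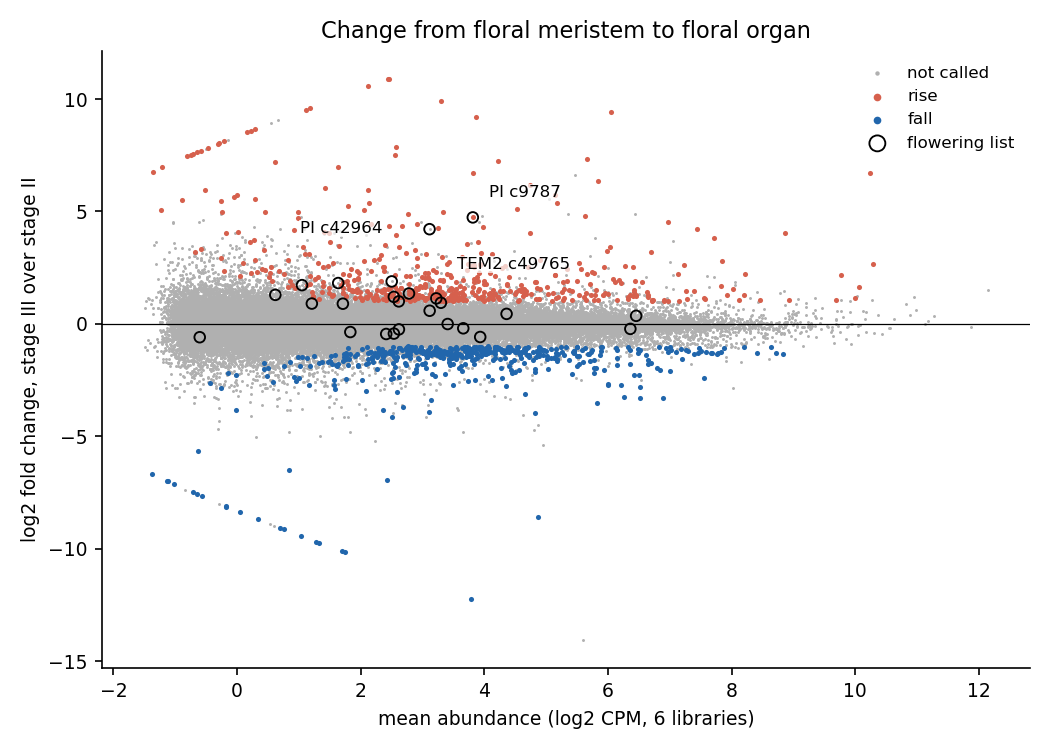
Log2 fold change from stage II to stage III against mean abundance (log2 CPM over the 6 libraries) for the 64971 transcripts tested. The 477 rises are red, the 483 falls blue, and open circles mark the 25 flowering transcripts tested. The oblique lines of points at the upper and lower left are transcripts with 0 reads in all libraries of 1 stage, for which the fitted value depends on the prior count.

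Abundant transcripts were called more often than scarce ones. The share called was 0.452% of the 14165 transcripts with a mean FPKM under 1, 1.28% from 1 to 10, 2.54% from 10 to 100 and 5.36% of the 1698 transcripts at 100 and over. Rises and falls were near equal in number in the upper 3 classes. In the lowest class there were 43 rises and 21 falls, with a median size of 5.01 on the log2 scale. Low counts give less power, and the part of depth in these shares was not tested.

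Short transcripts were also called more often. Transcripts under 1 kb were called in 2.30% of 9331 cases, those of 1 to 2 kb in 1.70%, those of 2 to 3 kb in 0.905% and those of 3 kb and over in 0.782% of 8445. The same order held among the transcripts with a mean FPKM of 10 and over, at 3.75% under 1 kb, 2.99% from 1 to 2 kb, 1.28% from 2 to 3 kb and 0.996% above. Among those with an FPKM under 10 it did not hold, since 0.825% were called under 1 kb and 1.29% from 1 to 2 kb. The identifiers also give the number of full-length long reads behind each transcript. The share called was higher with more of them, from 1.24% for transcripts seen in 1 full-length read to 2.59% for those seen in 10 or more, which are also the more abundant ones.

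**Figure D2:**
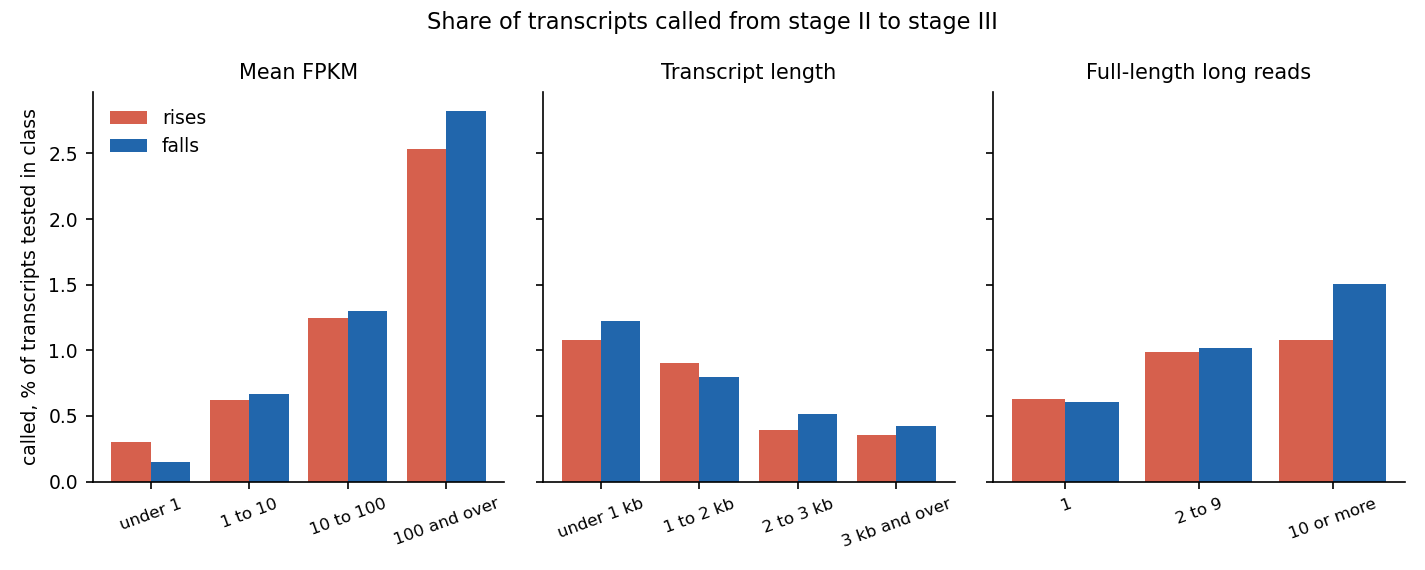
Share of the transcripts tested that were called as rises (red) or falls (blue) from stage II to stage III, by mean FPKM over the 6 libraries, by transcript length and by the number of full-length long reads in the identifier. Shares rise with abundance, up to 5.36% for both directions together at an FPKM of 100 and over, and fall with length.

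The 960 called transcripts held a small part of the transcript pool. The 477 rises made up 1.03, 0.995 and 0.838% of the summed FPKM in S2_1, S2_2 and S2_3, and 3.62, 3.22 and 3.04% in S3_1, S3_2 and S3_3. The 483 falls went from 2.50, 2.26 and 2.71% in the stage II libraries to 0.813, 0.866 and 0.994% in those of stage III. These transcripts were chosen by the same values, so the shares only describe their weight.

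The 100 most abundant transcripts took a larger share of the pool in stage III, at the limit of the test. The 100 most abundant transcripts of a library held 13.7, 16.4 and 14.8% of the summed FPKM in the stage II libraries and 18.3, 17.4 and 17.3% in those of stage III. Every stage III library was above every stage II library, by 2.70 percentage points between the means (exact permutation test, two-sided, p = 0.1, which is the lowest possible with 3 libraries against 3, and 0.2 after Benjamini-Hochberg adjustment over 2 tests of this kind). The 10 most abundant alone held 3.46% on average in stage II and 4.96% in stage III (exact permutation test, two-sided, p = 0.1). For these 10, S2_2 and S3_3 nearly met, both at 4.67%. For the 1000 most abundant transcripts the stages overlapped (exact permutation test, two-sided, p = 0.4). They held 42.6, 45.9 and 43.9% in S2_1, S2_2 and S2_3. In S3_1, S3_2 and S3_3 they held 45.4, 45.0 and 45.4%. Of the 100 transcripts with the highest mean FPKM in each stage, 72 were the same. The number of transcripts with an FPKM of at least 1 averaged 50340 ± 1261 in stage II and 50417 ± 550 in stage III (SD, n = 3 each), a difference smaller than either SD (two-sided exact permutation test, p = 1).

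Few transcripts met the limits set for being read in only 1 of the stages. Transcripts read in 1 stage at lower counts are left out by these limits. Transcripts with 0 reads in all 3 stage II libraries and at least 10 reads in every stage III library numbered 23, which is 0.0244% of the 94434 with reads. The reverse pattern was found for 28 transcripts (0.0297%). Their reads were few, with a median over the transcripts of 33.4 reads per stage III library for the first set and of 41.4 reads per stage II library for the second. In stage I, 14 of the 23 and 25 of the 28 had reads, at any count, in at least 1 library. At least 10 reads in every stage I library were found for 2 of the 23 and 6 of the 28.

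All of these transcripts shared at least part of their reads with others. RSEM, the program that counted the reads, splits reads shared by similar transcripts, which leaves fractions. All 23 and all 28 had fractional counts in at least 1 of the 6 libraries (tolerance 0.005), whereas 12076 of the 94434 transcripts with reads (12.8%) had whole-number counts throughout. Of these, 5468 had at least 10 reads in every stage III library, and the fewest reads any of them had in the stage II libraries together was 5. In the other direction, 5389 transcripts had at least 10 reads in every stage II library, and the fewest reads in the stage III libraries together was 9. No transcript with unshared reads was therefore switched fully on or off by these limits. Of the 70 calls over 32-fold, 69 had fractional counts, as did 882 of all 960 calls and 58929 of the 64971 transcripts tested, and 35 of the 70 had 0 reads in all libraries of 1 stage.

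Among the 6042 transcripts with whole-number counts the test called 78 (1.29%), 45 of them rises and 33 falls. Their log2 fold changes lay between -3.81 and 5.94, with medians of 1.88 for the rises and -1.35 for the falls, against 1.62 and -1.36 over all calls. When the 6042 were fitted and adjusted on their own, 185 (3.06%) were called, 100 rises and 85 falls.

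The largest rise in mean FPKM among the calls was that of i1_LQ_HNbud_c34047/f1p0/1535, a transcript of 1535 bp. Its FPKM was 20.2, 19.9 and 14.98 in S2_1, S2_2 and S2_3 and 2336, 1967 and 1377 in S3_1, S3_2 and S3_3. The lowest stage III library was far above the highest of stage II, and the transcript moved into the most abundant 0.1% of those read. Its log2 fold change was 6.69 (SE 0.28, edgeR q = 0.000816), and in stage I it had 17.3, 0.30 and 0. Its counts are not all whole numbers, so part of its reads was shared with similar transcripts.

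i0_LQ_HNbud_c73542/f1p0/942, chosen after its values were seen, shared the smallest q value with 1 other transcript, which had the lower p. Its FPKM rose from 6.58, 4.36 and 5.08 in the stage II libraries to 152, 135 and 156 in those of stage III (log2 fold change 4.80, SE 0.16, edgeR q = 0.000284). The replicates of either stage lay close together. In stage I it was at 0.68, 0, and 0.09, so it was near absent there and had its highest level in stage III.

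The largest fall in mean FPKM was that of i0_HQ_HNbud_c66681/f2p0/794. It had an FPKM of 1375, 1138 and 974 in S2_1, S2_2 and S2_3 and of 374, 404 and 643 in S3_1, S3_2 and S3_3, without overlap. The log2 fold change was -1.29 (SE 0.23, edgeR q = 0.0432), and the call was lost without any one of S2_1, S2_2, S2_3, S3_1 or S3_2 (q values of 0.0870 to 0.166). In stage I it had been low, at 112, 16.4 and 2.16, so this transcript was highest in stage II.

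Among the 28 transcripts read in stage II only, i0_LQ_HNbud_c24909/f1p0/876 was chosen after its values were seen, for having at least 100 reads in each stage II library. It was given 560, 772 and 544 reads in S2_1, S2_2 and S2_3, 432, 402 and 588 in the stage I libraries and 0 in all 3 libraries of stage III. Its counts are shared with similar transcripts and are 0 throughout stage III, so no fold change is given. Part of the reads was shared for all 4 of the transcripts named by identifier, and what this does to their fold changes was not tested. None of the 4 transcripts has a gene name in the files.

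The 26 flowering transcripts, matched to 19 Arabidopsis genes, were chosen by the study as changed on these same libraries, so their direction is not independent evidence. Of the 25 that passed the filter on low counts, 2 were called, both rises, against 0.734% of all transcripts tested that rose. These were PI (c9787) and TEM2 (c49765), each named with its long-read cluster. A q value under 0.05 was reached by 3 transcripts, the third being NAP, against 2.17% of all transcripts tested, and an unadjusted p under 0.05 by 12, against 17.4%. DESeq2, which called more transcripts than edgeR, gave q values of 4.9e-05 for PI (c9787), 5.1e-07 for TEM2 and 3.6e-05 for NAP. There NAP again stayed below a 2-fold change, and the other PI transcript had q = 0.348. The median log2 fold change of the 25 was 0.90, with 16 positive and 9 negative values, against -0.01 over all transcripts tested. All 10 values over 1 in size were positive. The stages did not overlap in CPM for 11 of the 25, with stage III above for 8 and below for 3, against 11.7% and 12.6% of all transcripts tested. In abundance the list leaned to the upper side, since only 7 of the 25 were below the median of the transcripts tested. Its percentiles ranged from 4.24 to 97.3, and the part of abundance in the shares above was not tested. Part of the reads was shared with similar transcripts for 22 of the 26.

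**Figure D3:**
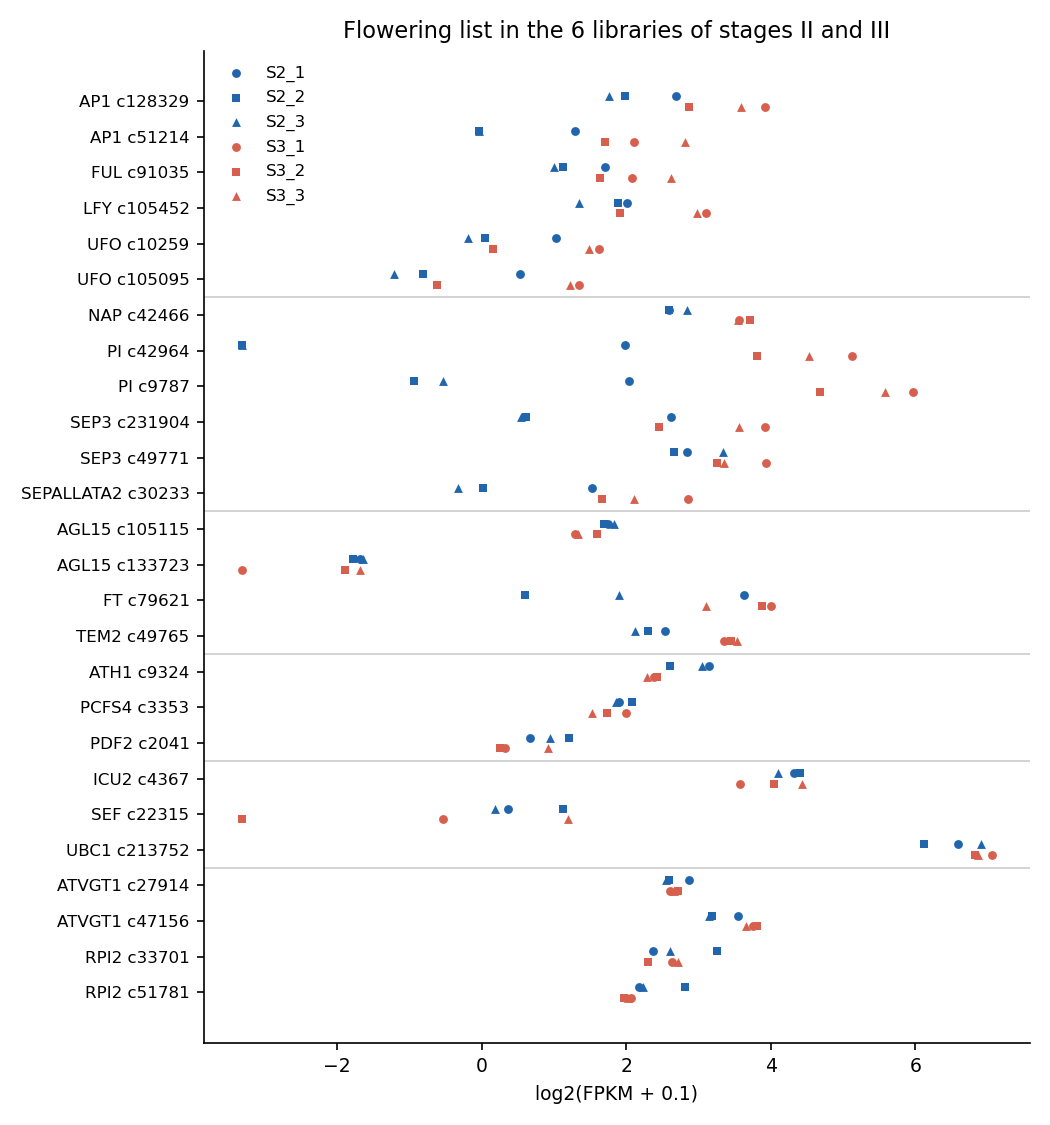
Level of the 26 flowering transcripts as log2(FPKM + 0.1) in each stage II library (blue) and stage III library (red), with the replicate shown by the marker. Lines separate the groups: meristem identity, organ identity with NAP, flowering time, homeodomain and RNA processing, chromatin with replication and ubiquitin, and sugar. The PI transcripts stand furthest apart, and S2_1 lies nearest to stage III for both.

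The 2 PI transcripts held the largest log2 fold changes of the list. They belong to the group of organ identity transcripts, to which the NAC gene NAP was added. In this group 1 of 6 was called, against 1.48% of all transcripts tested, and all 6 log2 fold changes were positive, against 49.3%. PI, the class B gene for petals and stamens, was close to absent in S2_2 and S2_3 and abundant in every stage III library. PI (c9787) had an FPKM of 4.02, 0.42 and 0.59 in S2_1, S2_2 and S2_3, from 59.5, 6 and 7 reads. In S3_1, S3_2 and S3_3 it had 62.7, 25.4 and 47.7, from 748, 310 and 635 reads. No stage III value came near those of stage II, and within stage II the value of S2_1 was well above the others. The log2 fold change was 4.74 (SE 0.74, edgeR q = 0.0312), at percentile 99.9 of all transcripts tested. Without S2_1 it was 6.45 (q = 0.0216 in edgeR). The call was lost without any one of the other 5 libraries, at log2 fold changes of 4.29 to 5.04 and q values of 0.0590 to 0.129.

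The other PI transcript (c42964) had an FPKM of 3.86, 0 and 0 in the stage II libraries and 34.7, 13.9 and 23.1 in those of stage III. All of its stage II reads thus came from S2_1. Its log2 fold change of 4.21 (SE 1.15, edgeR q = 0.121) did not pass, but did without S2_1, with q = 0.0296 and 0 reads in both remaining stage II libraries. With the reads of both PI transcripts summed, the log2 fold change was 4.54 (SE 0.94, edgeR q = 0.0632), so PI was called for only 1 of its transcripts and not for their sum, a fit added after the data were seen.

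SEP3 and SEPALLATA2 are class E genes, whose proteins join those of the other classes. SEP3 (c231904) had an FPKM of 6.07, 1.43 and 1.36 in the stage II libraries and 15.01, 5.35 and 11.7 in those of stage III (log2 fold change 1.89, SE 0.63, edgeR q = 0.188). S2_1 was above S3_2, so the stages overlapped, while DESeq2 called this transcript with q = 0.0207. SEPALLATA2 (c30233), whose counts are whole numbers, had 2.77, 0.91 and 0.70 in stage II and 7.11, 3.06 and 4.19 in stage III (log2 fold change 1.72, SE 0.56, edgeR q = 0.176). Its stages lay just apart, by the gap between S2_1 and S3_2. The better expressed SEP3 transcript (c49771) had a smaller log2 fold change of 0.58 (SE 0.26, edgeR q = 0.309) and was present in stage II already, at an FPKM of 6.20 to 10.01, with 9.42 to 15.2 for stage III.

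NAP (c42466) encodes a NAC transcription factor known in Arabidopsis as a target of the class B proteins and for its part in leaf senescence. Its FPKM was 5.93, 5.91 and 7.08 in S2_1, S2_2 and S2_3 and 11.7, 12.9 and 11.6 in S3_1, S3_2 and S3_3, on whole-number counts. Replicates were tight and the stages did not overlap. With a log2 fold change of 0.94 (SE 0.13, edgeR q = 0.0253) it passed the q value but not the fold change of the rule. Without any one of the 6 libraries its q value was over 0.05, at 0.0538 to 0.117.

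**Figure D4:**
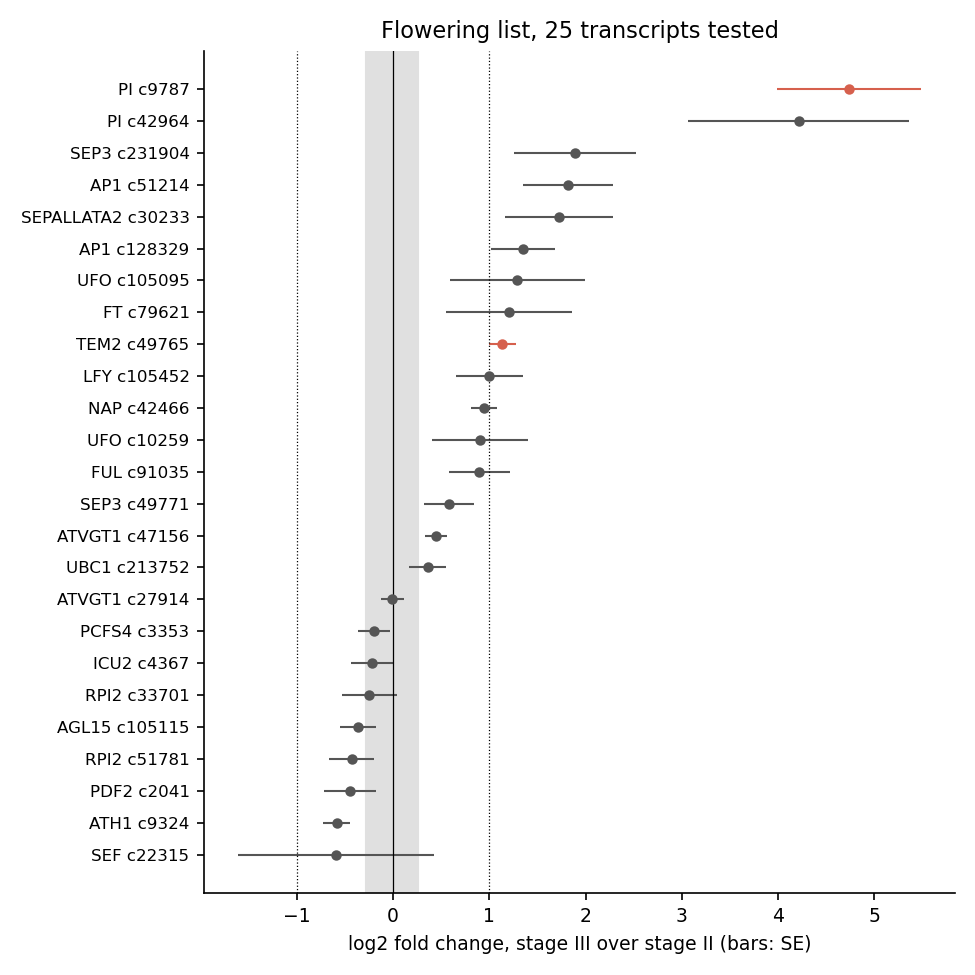
Log2 fold change from stage II to stage III with its SE for the 25 flowering transcripts tested, ordered by size. PI (c9787) and TEM2 (c49765), in red, met a q value under 0.05 and a fold change over 2, marked by the dotted lines. The grey band spans the quartiles of all transcripts tested, from -0.28 to 0.26.

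Of the meristem identity transcripts 0 of 6 were called, against 1.48% of all transcripts tested. All 6 log2 fold changes were positive, against 49.3%, and 4 had an unadjusted p under 0.05, against 17.4%. The 6 were chosen by the study as changed on these libraries. AP1 and UFO each have 2 transcripts among them, so the 6 values are not separate observations. Their median log2 fold change was 1.15. AP1, a MADS-box gene of floral meristem and sepal identity, gave the clearest separation. AP1 (c128329) had 135, 78.9 and 56.6 reads in the stage II libraries and 257, 126 and 230 in those of stage III (log2 fold change 1.35, SE 0.33, edgeR q = 0.0956). AP1 (c51214) had an FPKM of 2.35, 0.87 and 0.87 in stage II and 4.19, 3.17 and 6.90 in stage III (log2 fold change 1.82, SE 0.47, edgeR q = 0.106). Scaled to library size, every stage III library was above every stage II library for both, with the FPKM of AP1 (c128329) at 6.34 in S2_1 and 7.18 in S3_2. DESeq2 called both, with q values of 0.00443 and 0.00688, while the summed reads gave q = 0.0779 in edgeR.

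LFY, which switches a meristem to floral fate, and its F-box partner UFO overlapped between the stages. LFY (c105452) had an FPKM of 3.93, 3.61 and 2.45 in stage II and 8.51, 3.66 and 7.77 in stage III (log2 fold change 1.001, SE 0.34, edgeR q = 0.199). The libraries S3_1 and S3_3 were about as high as each other, and S3_2 was within stage II. UFO (c10259) had 1.94, 0.93 and 0.78 in stage II and 2.98, 1.01 and 2.71 in stage III, again with S3_2 among the values of stage II. UFO (c105095) had the same order of libraries, from 0.33 to 1.34 in stage II and from 0.55 to 2.45 in stage III, and both had q values of 0.404 and above in edgeR. FUL (c91035), a MADS-box gene close to AP1, had 3.15, 2.08 and 1.90 in stage II and 4.12, 3.00 and 6.02 in stage III (log2 fold change 0.90, SE 0.32, edgeR q = 0.215).

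Of the 3 flowering time transcripts tested, only TEM2 was called. TEM2 (c49765), a repressor of FT in Arabidopsis, had an FPKM of 5.72, 4.84 and 4.26 in the stage II libraries and 10.1, 10.9 and 11.5 in those of stage III. Every stage III library was well above every stage II library, and the spread within stages was small. The log2 fold change was 1.13 (SE 0.14, edgeR q = 0.0178). The call held without S2_1 or S2_2, and was lost without any one of the other 4 libraries, at q values of 0.0530 to 0.0854.

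FT (c79621) had an FPKM of 12.3, 1.42 and 3.64 in the stage II libraries and 15.9, 14.6 and 8.48 in those of stage III. S2_1 was above S3_3 and far above the other stage II libraries. The log2 fold change was 1.20 (SE 0.66, edgeR q = 0.409), and without S2_1 it was 2.35 (q = 0.0847 in edgeR). AGL15, a MADS-box repressor of flowering, had lower values in stage III. AGL15 (c105115) had 3.26, 3.13 and 3.47 in stage II and 2.35, 2.93 and 2.41 in stage III, without overlap, and its log2 fold change was -0.36 (SE 0.18, edgeR q = 0.376). AGL15 (c133723), with at most 8.4 reads per library, did not pass the filter on low counts.

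None of the remaining 10 flowering transcripts was called. ATH1 (c9324), a homeodomain gene of the shoot apex, had the clearest difference among them. Its FPKM was 8.75, 5.96 and 8.17 in the stage II libraries and 5.11, 5.26 and 4.78 in those of stage III, lower in all 3 (log2 fold change -0.58, SE 0.14, edgeR q = 0.0909). PDF2 (c2041), a homeodomain gene of the epidermis, and PCFS4 (c3353), a factor in the cleavage and polyadenylation of mRNA, had log2 fold changes of -0.45 and -0.20, with overlapping libraries.

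ICU2 (c4367), the catalytic subunit of DNA polymerase alpha, and UBC1 (c213752), a ubiquitin-conjugating enzyme that acts on histones, were among the most abundant of the list. ICU2 had an FPKM of 17.0 to 21.2 for stage II, and for stage III 11.8 to 21.5, and UBC1 had 69.7 to 120.2 and 114 to 134. Their log2 fold changes of -0.22 (SE 0.22) and 0.36 (SE 0.19) had q values of 0.665 and 0.394 in edgeR. SEF (c22315), a subunit of a chromatin remodelling complex, was too scarce to compare, with 0 to 23.4 reads per library and an SE of 1.01.

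The genes of sugar metabolism did not share a direction. ATVGT1, a vacuolar glucose transporter, had log2 fold changes of 0.44 (c47156, SE 0.12, edgeR q = 0.111) and -0.01 (c27914, SE 0.12, q = 0.987). The former had an FPKM of 8.74 to 11.6 for stage II, and for stage III 12.5 to 13.9, without overlap. RPI2, an isomerase of the pentose phosphate pathway, had log2 fold changes of -0.25 (c33701, SE 0.29) and -0.43 (c51781, SE 0.23), with q values of 0.724 and 0.404 in edgeR.

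The preceding step, from stage I to II, shares the stage II libraries, and its values are set beside those above. The log2 fold change was 3.38 for AP1 (c128329, edgeR q = 0.0477), 4.10 for FUL (q = 0.00902) and 2.71 for SEP3 (c49771, q = 0.00766), against 1.35, 0.90 and 0.58 in the later step. These 3 MADS-box transcripts passed the test in the earlier step. SEP3 (c231904) also passed as a rise, from 0 reads in all stage I libraries (edgeR q = 0.0228), and had 1.89 in the later step. Both AGL15 transcripts passed as falls, at -2.08 (c105115, edgeR q = 0.00974) and -2.07 (c133723, edgeR q = 0.0177). The other AP1 transcript (c51214) had 1.16 (edgeR q = 0.163) and then 1.82, and LFY had 1.01 (edgeR q = 0.495) and then 1.001. For TEM2 and NAP it was -1.39 (q = 0.147 in edgeR) and -0.73 (q = 0.301), against 1.13 and 0.94. The stage I library S1_3 stood apart for both, as the FPKM in S1_1, S1_2 and S1_3 was 5.73, 5.66 and 23.4 for TEM2 and 6.83, 4.95 and 16.3 for NAP. By the same rule, 12 of the list transcripts tested in both steps were called from stage I to II. AGL15 (c133723), tested only in this earlier step, was called as well. In total 22 list transcripts were tested there, and 17.5% of all transcripts were called.

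The stage II libraries were not equally far from stage III. Over the 26 transcripts S2_1 was the highest of stage II in CPM for 15 and the lowest for 4. Over all 64971 transcripts tested it was the highest for 44.6% and the lowest for 24.7%. Over the 6 meristem identity transcripts it was the highest for all 6. The highest library is not always the nearest to stage III, since ATH1 was highest in S2_1 and lower in stage III. To place each library without using its own values, calls were made on the other 5 libraries and the library was set between the stage means of those 5 in log2 CPM, with stage II at 0 and stage III at 1. The median position was 0.22 for S2_1 over 640 transcripts, 0.28 for S2_2 over 915 and 0.0042 for S2_3 over 309. S2_2, low for PI and FT, was therefore as far towards stage III over all calls as S2_1. In stage III the median position was 1.02 for S3_1, 0.93 for S3_2 and 0.78 for S3_3, and S3_3 was nearer to stage II for the falls (0.62) than for the rises (0.90). A library left out of the calls is drawn towards the other stage by the choice of transcripts, and the transcripts differ between libraries, so the positions are a description added after the data were seen.

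**Figure D5:**
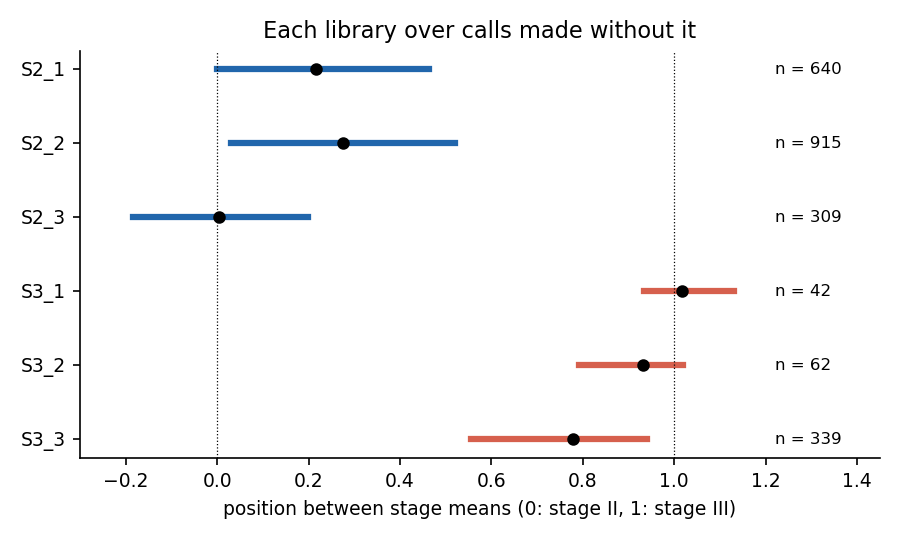
Position of each library between the stage means of the other 5 libraries, over the transcripts called without it (n at the right), where 0 is stage II and 1 is stage III. Points are medians and bars span the quartiles. S2_3 lies at 0.0042 and S2_2 at 0.28, and the stage III libraries lie between 0.78 and 1.02.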

How the data were processed

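RNA-seq was made by the authors from buds at 3 stages, with 3 libraries per stage. Reads were filtered with ng_QC, mapped with bowtie2 to the polished long-read transcripts and counted with RSEM, with versions not given in the sources used here. The authors deposited the expected counts of RSEM, without normalization, and FPKM values made from them. Groups were taken from the sample labels. Columns of other samples were not found.

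Counts were rounded to whole numbers, kept by filterByExpr (minimum count 10, minimum total 15), normalized by TMM and tested on the 6 libraries with the quasi-likelihood test of edgeR 4.0.16 (R 4.3.3), with Benjamini-Hochberg q values over all transcripts tested. SEs were derived from each log2 fold change and its F statistic. Alternatives used DESeq2 1.42.0, limma 3.58.1, other filters, libraries and a replicate block. Exact permutation tests used SciPy 1.17.1. The fits were tested on simulated data. Precision is limited by the 3 libraries per stage, at 20096583 to 25195520 fragments each.

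Transcripts were named by rule, as the 26 flowering transcripts of the study plus, in each direction, the largest change in mean FPKM among calls with libraries apart. A rule for transcripts read in 1 stage with whole-number counts found none. The members, lists and the q value of 0.05 were chosen with earlier results of these data known. No transcript sequences were used here.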

Additional observations from a re-analysis of the deposited data

How the results depend on the processing

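The count of 960 calls became 2012 in DESeq2 (897 rises and 1115 falls), 6 with all 9 libraries in 1 fit (2 and 4) and 185 on whole-number counts only (100 and 85). With 1 library left out it was 43 to 923 (38 to 458 rises and 5 to 465 falls). RLE scaling, testing without the low-count filter, limma on log2(FPKM + 1) or log2(FPKM + 0.1) and no fold change criterion kept it within 1.5 times. The replicate numbers did not pair the libraries, as deviations of same-numbered libraries had correlations of 0.0026, -0.068 and -0.042. With the number as a replicate block 5 transcripts were called (5 rises and 0 falls), and PI (c9787) and TEM2 were not (q = 0.0836 and 0.110 in edgeR).

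At a q value under 0.001 the 4 calls became 1133 in DESeq2, 10 in limma on log2(FPKM + 1), 11 on whole-number counts only, and 0 with all 9 libraries, with the replicate block or with any library left out (edgeR, lowest and highest 0 and 0). An unadjusted p under 0.05 was still found for 9211 transcripts with the block, 5089 with all 9 libraries and, leaving out 1 library at a time, 8662 to 12131.

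The transcripts read only in stage III and only in stage II numbered 51 and 57 at a minimum of 5 reads, 5 and 8 at 30 reads, 0 and 0 on whole-number counts, and 45 to 79 and 66 to 84 without 1 library. The difference in transcripts detected, 77, was -372 at a limit of 10 reads and -521 to 735 without 1 library. Among named transcripts, the log2 fold change of ATVGT1 (c27914) changed sign without S2_1 or S3_1 (range over libraries left out -0.058 to 0.065) and on summed reads (0.29), and that of RPI2 (c33701) without S2_2 (range -0.45 to 0.11). Of 394 such values over 29 transcripts, 360 kept direction and side of the threshold, mostly for transcripts that were not called. All 25 lost calls fell on the 6 called ones, and PI (c9787), TEM2 and c66681 were each called in 7 of 15, 14 and 14 settings, the main test included. The causes were not tested.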
